A study of Mus musculus with 9 samples.

Results

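Of the 1881 mouse miRNAs on the arrays, 390 carry a name from miR-6896 to miR-7093 with a 5p or 3p arm, and the 115 of these that the scanner software called detected on at least 1 of 9 arrays are described here. They are 56 of 196 entries for the 5p arm and 59 of 194 entries for the 3p arm. Entries with a letter after the number, such as miR-6973a-3p, were not counted in the range and stand among the entries outside it. They were chosen by their detection calls, so detection is given as a description without a test. Lung RNA came from 9 mice, 1 single-colour (Cy3) Agilent miRNA array per mouse, in 3 groups of 3. The control mice have no treatment named, the model mice received D-galactose and sodium nitrite and are labelled with 42 days, and the codonopsis mice received the plant Codonopsis pilosula at 15 g per kg and are labelled with 30 days. The labels do not say whether the codonopsis mice also received D-galactose and nitrite, and they give no strain or age. Control 1, codonopsis 1 and codonopsis 2 were male and the other 6 mice female. The 3 control arrays were on a slide of their own and the model and codonopsis arrays shared another slide, so in any comparison with control the groups and the slides cannot be told apart.

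A mirtron is a miRNA precursor that is an entire short intron: the spliceosome, not the nuclear enzyme Drosha, releases it from the host transcript, and after debranching the folded intron is cut by Dicer. The 5p arm then begins near the 5′ splice site and the 3p arm ends near the 3′ splice site, where introns carry a tract of C and U followed by AG. Such hairpins are often found by deep sequencing at low abundance, and for most of them no function is established.

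A RefSeq sequence (mouse build GRCm38.p6) was found for 103 of the 115 entries, 48 of the 5p and 55 of the 3p arm, and all 103 lay within the bounds of a protein-coding gene. So did all 175 hairpins of the number range, detected or not, against 57.5% of 830 hairpins outside it. The match used position alone, without strand or intron bounds. The hairpin of miR-7011, whose 3p arm was detected on all 9 arrays, is shown because it holds both arms, marked in capitals. Mir7011 lies at chr3:88440879-88440951 on the minus strand within Sema4a, which encodes a membrane-bound semaphorin.
Mir7011: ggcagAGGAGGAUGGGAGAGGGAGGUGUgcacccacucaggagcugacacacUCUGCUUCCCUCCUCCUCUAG

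It ended in AG, as did 85 of the 87 hairpins of the detected entries (97.7%), against 8.92% of 830 hairpins outside the number range. Their median length was 66 bases, against 82 outside the range. The arms differed in composition. The 5p members were rich in G, with a median of 47.7%, and 22 of 48 (45.8%) held GGGG on the strand of the mature miRNA, against 12.0% of 425 detected entries outside the range. The 3p members were made mostly of C and U, with a median share of 77.3% and a range from 47.6% to 91.3%, against a median of 47.8% in the detected entries outside the range. Of the 55 3p sequences, 34 ended in CAG (61.8%), against 1.88% of the detected entries outside. These features were shared with the undetected entries of the same numbers: 72.2% of 115 undetected 3p entries ended in CAG, and their median share of C and U was 71.4%.

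The mature sequences of the members on which the results below turn are printed with the seed, bases 2 to 8, in capitals. The first 3 are 3p arms with different levels among the arrays, and the next 4 are the 5p arms of widest range for which a sequence was found.
miR-7011-3p: uCUGCUUCccuccuccucuag
miR-7017-3p: aCCCUGCUccucucccuccag
miR-6957-3p: uGGAUCUCuuguuuucucuucc
miR-7061-5p: uAUGGAAAuaggaggugauuuu
miR-7080-5p: gUAGGAGCuggagguggguuugg
miR-7055-5p: uCAGUGGGuuaucugaguugg
miR-6904-5p: uCCUGGGGuuagaguugagugg

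Seeds were shared by 3 pairs among the 103 members with a sequence. The seed CAGUGGG was common to miR-6926-5p and miR-7055-5p, CUGGGGA to miR-6975-5p and miR-7005-5p, and GAGGGAG to miR-6965-5p and miR-7047-5p. Partners of these pairs are shown because their levels are set beside each other further on.
miR-6926-5p: uCAGUGGGgugagggaugguga
miR-6975-5p: gCUGGGGAgaaagggguuuggca
miR-7005-5p: cCUGGGGAugggaggaccagca
miR-6965-5p: aGAGGGAGgcuauugggcaggaga

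Between 375 and 484 miRNAs were detected per array. Across the 289 miRNAs detected on every array, control 1 had a median correlation of 0.911 with the other arrays, while the medians of the other 8 arrays lay from 0.974 to 0.987. The 75th percentile of the processed signal over those 289 miRNAs was 245 on control 1 and 394 to 538 on the other 8 arrays. Markers of lung cells, such as the endothelial miR-126a-3p and the epithelial miR-200 members, were detected on all 9 arrays, and the brain markers miR-124-3p and miR-9-5p and the pancreas marker miR-216a-5p on none. The liver marker miR-122-5p was detected on 3 arrays and the heart marker miR-208a-3p on 1. The heart and muscle markers miR-1a-3p and miR-133a-3p were detected on all 9. Signals below are the background-subtracted processed signals of the scanner software, averaged over the spots and the 2 or 3 probes of an entry, with no unit and no scaling between arrays. The log2 scaled signal divides them by the 75th percentile of the array and stops at a floor of −8. Signals of different miRNAs depend on the probe and do not order their abundance.

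The 5p and 3p members were detected on different arrays. Of the 56 5p members, 17 were detected on all 9 arrays, 23 on 3 to 8, 9 on 2 and 7 on 1. Of the 59 3p members, 2 were detected on all 9 arrays, 9 on 3 to 8 and 6 on 2, while 42 were detected on 1 array, and for all 42 (71.2%) that array was control 1. Among the 535 detected entries outside the range, 73 (13.6%) were detected only on control 1, and among the 5p members 3 were. Control 1 detected 56 of the 59 3p members, controls 2 and 3 detected 9 and 5, the model arrays 2, 5 and 6, and the codonopsis arrays 16, 12 and 8. The 5p members detected were 29, 42 and 27 on the controls, 33, 34 and 31 on the model arrays and 47, 45 and 31 on the codonopsis arrays.

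**Figure D1:**
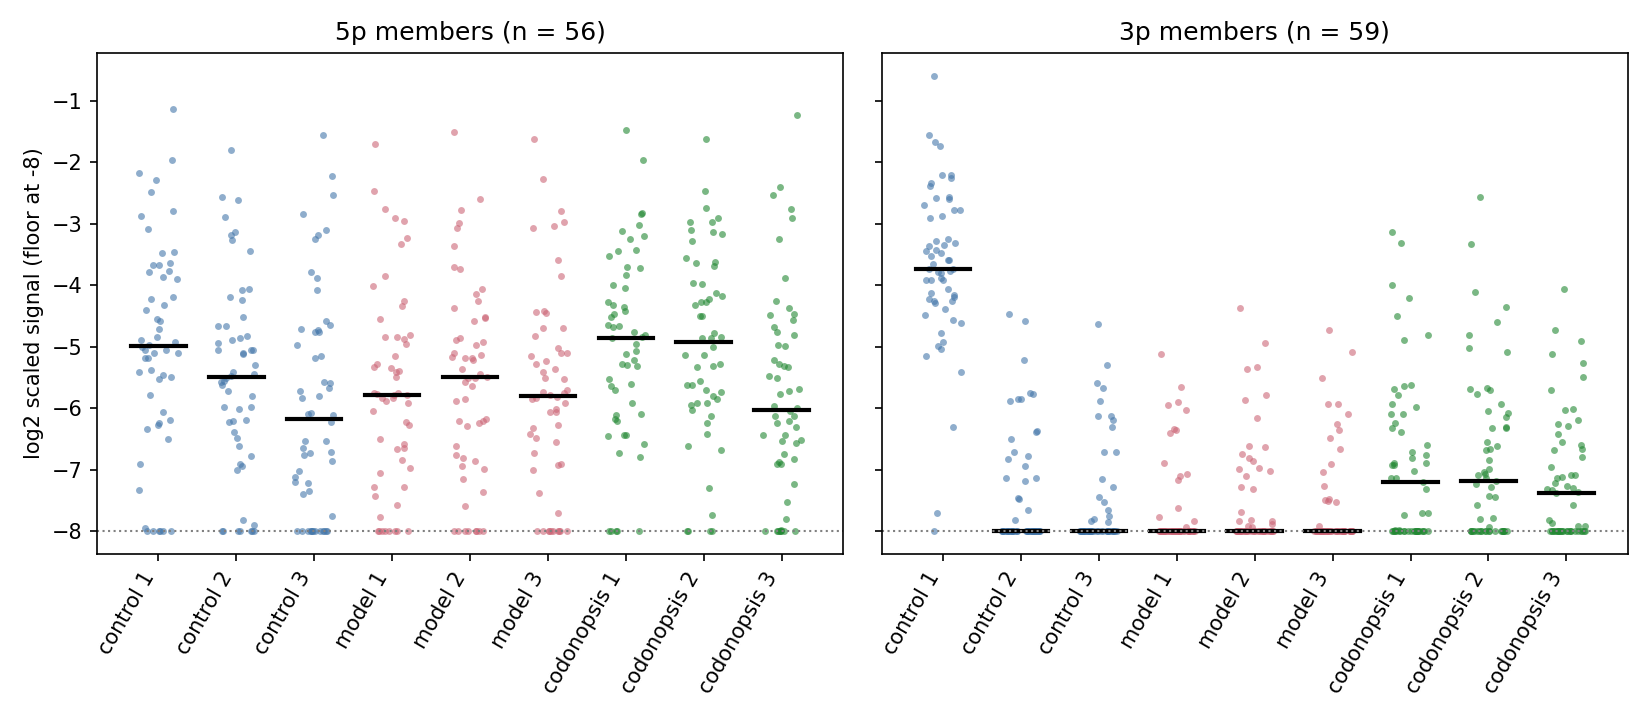
Log2 scaled signal of every 5p member (left, n = 56) and 3p member (right, n = 59) on each of the 9 arrays, with 1 point per entry, a black bar at the median and a dotted line at the floor of −8. The 3p points of control 1 have a median of −3.73 and stand above the other 8 arrays, whose 3p medians are at the floor for controls 2 and 3 and the model arrays and between −7.37 and −7.17 for the codonopsis arrays.

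The steadiest members were 5p arms. The range of the log2 scaled signal over 9 arrays, in the 17 5p members detected on all of them, was 0.41 to 2.93 with a median of 0.85, and 11 of the 17 had a range under 1. The narrowest was miR-7011-5p, with signals of 19.2, 31.9 and 25.7 on the controls, 28.4, 31.6 and 27.3 on the model arrays and 36.9, 34.1 and 27.1 on the codonopsis arrays. The unscaled groups overlapped, and control 1 was the lowest array unscaled and the highest scaled. The 5p entry with the highest mean level, miR-7047-5p, gave 112, 154 and 148 on the controls, 127, 149 and 129 on the model arrays and 173, 142 and 171 on the codonopsis arrays, a log2 range of 0.67. miR-6965-5p, which has the same seed and lies within Ccnf (the cyclin F gene), gave 50.4, 72.8 and 60.6 on the controls, 52.9, 53.1 and 48.0 on the model arrays and 55.7, 48.9 and 53.6 on the codonopsis arrays. Its groups overlapped unscaled. On the log2 scaled signal all model and codonopsis arrays lay below all controls, by 0.33 and 0.39 in the means (SE 0.20 each, limma adjusted p 0.529 and 0.544).

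The other brightest 5p members behaved in the same way. Over the 9 arrays miR-7042-5p ranged from 54.5 to 124, miR-6937-5p from 41.1 to 67.4 and miR-7082-5p from 32.9 to 59.8, all 3 detected on every array. Wider ranges were found for miR-7050-5p, at 37.0 on codonopsis 2 and 91.6 on control 2, and for miR-7040-5p, at 19.2 on control 1, 20.9 on codonopsis 3 and 32.3 to 61.6 on the other 7 arrays. In both the unscaled extremes fell on single arrays and not on a group.

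The 3p arms stood out on 1 array. Control 1 gave the highest signal of the 9 arrays for 55 of 59 3p members, scaled or unscaled, and each of the 55 had all of its 2 or 3 probes highest there. It did so for 5 of 56 5p members unscaled and 19 of 56 scaled, and for 189 of the 535 detected entries outside the range (35.3%) scaled. Since 42 of the 3p members were kept through control 1 alone, their excess there was set by the rule that chose them. Of the 17 3p members detected on some other array, 13 were highest on control 1.

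The clearest example was the bright 3p arm of miR-7047. miR-7047-3p gave 162, 24.5 and 17.5 on controls 1, 2 and 3, 11.8, 20.4 and 14.9 on the model arrays and 48.3, 43.4 and 24.1 on the codonopsis arrays. Control 1 was far above both other controls, the model and codonopsis arrays did not overlap, and the 5p arm of the same hairpin was the lowest on control 1 unscaled (112) and the highest there scaled (−1.13, against −1.80 to −1.23 on the other arrays). miR-7011-3p gave 73.4, 14.6 and 11.03 on the controls, 8.17, 13.9 and 8.70 on the model arrays and 30.3, 25.4 and 15.1 on the codonopsis arrays. miR-7017-3p, which lies within Wasf2 (an activator of actin branching), gave 83.0, 9.31 and 6.21, then 6.32, 10.3 and 6.45, then 21.3, 18.1 and 11.51 in the same order. All 3 had the order control 1, then codonopsis 1 and 2, then the rest. miR-7082-3p, with 46.9 on control 1, and miR-6923-3p, with 51.2, had the same order and were detected on 8 arrays each.

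The 4 3p members that were not highest on control 1 were miR-6902-3p, miR-6957-3p, miR-7003-3p and miR-7042-3p. Each was highest on codonopsis 1 or codonopsis 2, and 3 of them were not detected on control 1. miR-6957-3p, within Grap2 (a T-cell adaptor gene), gave 19.5, 22.7 and 1.34 on the controls, 0.74, 2.72 and 2.22 on the model arrays and 55.0, 73.6 and 2.96 on the codonopsis arrays. Codonopsis 3 lay just above the model arrays and far below the other codonopsis arrays. It had the widest log2 range of the 3p members detected on at least 3 arrays, at 5.43.

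**Figure D2:**
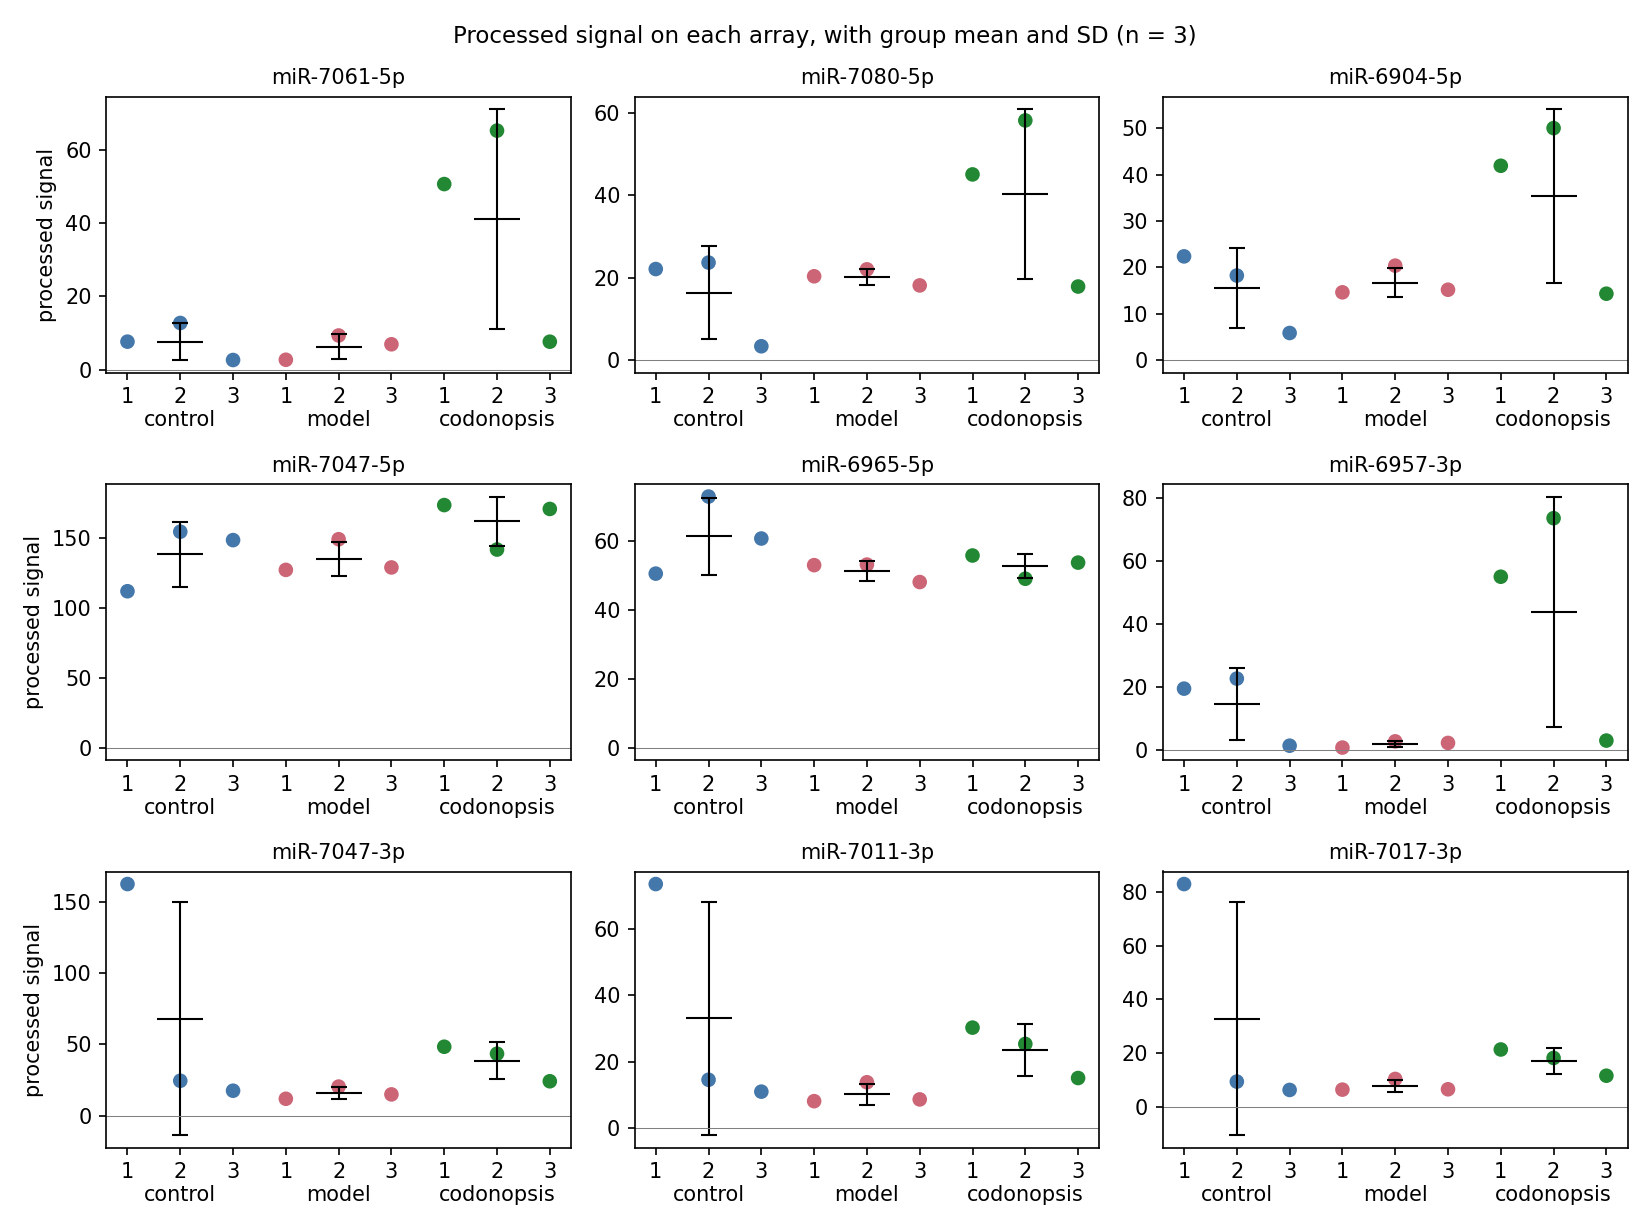
Processed signal (vertical axis, no unit) of 5 5p members and 4 3p members on each of the 9 arrays, with the group mean and SD (n = 3) in black. miR-7047-5p and miR-6965-5p are similar on all arrays, miR-7047-3p, miR-7011-3p and miR-7017-3p are highest on control 1, and in this unscaled signal miR-7061-5p, miR-7080-5p, miR-6904-5p and miR-6957-3p are highest on codonopsis 1 and 2.

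Both arms were members for 17 hairpins, which gives a comparison within a precursor. The excess of control 1 over the mean of controls 2 and 3, on the log2 scaled signal, was larger for the 3p arm in 14 of the 17. The exceptions were miR-6906, miR-6946 and miR-7080. For miR-7047 the excess was 0.55 in the 5p arm and 3.96 in the 3p arm, for miR-7011 0.41 and 3.52, and for miR-7020 −0.42 and 5.42. Over all members the median excess was 0.51 for the 5p arm (range −1.58 to 4.36) and 4.09 for the 3p arm (0.00 to 6.33). Controls 2 and 3 were often at the floor in the 3p arm, where the true excess can be larger than printed. No test was made, since control 1 took part in choosing the members. The 3p arms of miR-6906, miR-6946, miR-6984, miR-6985, miR-6995, miR-7005, miR-7020, miR-7034 and miR-7070 were detected on control 1 alone. The excess of these 3p arms was set by the rule that chose them. Among the hairpins whose 3p arm was detected on another array, all but miR-7080 had the larger excess in the 3p arm.

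**Figure D3:**
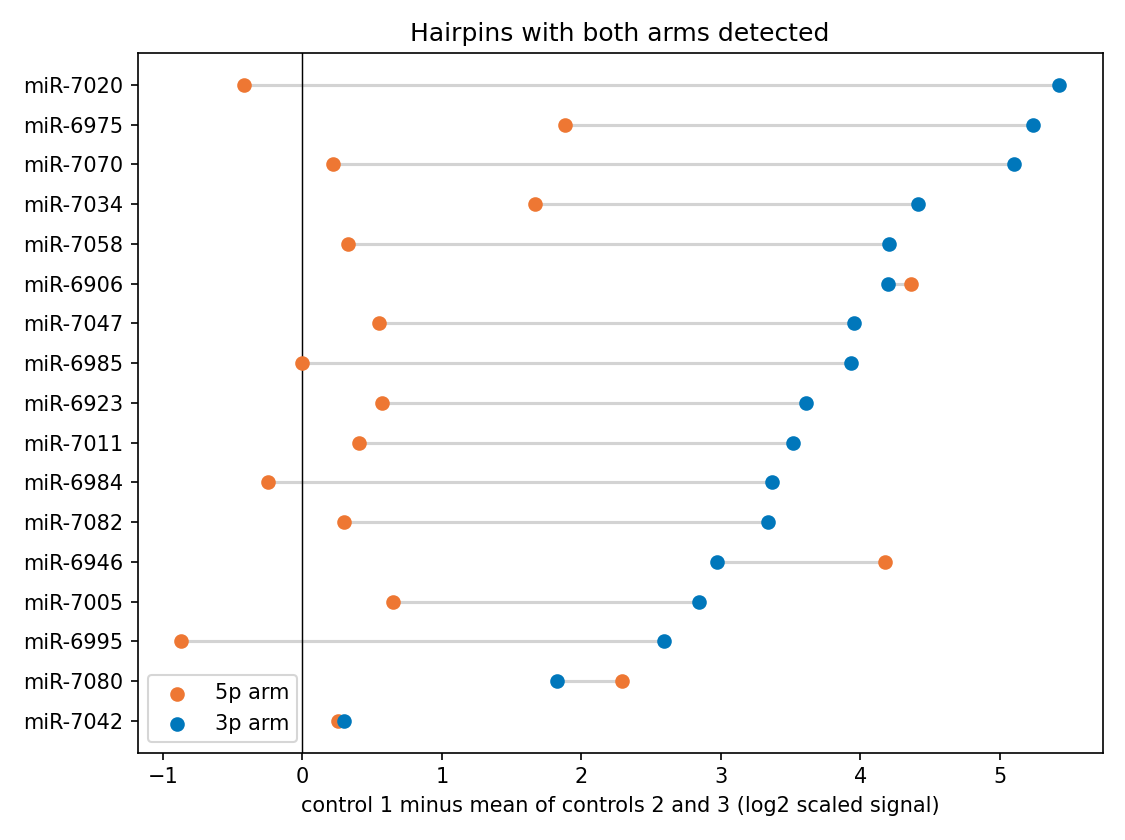
Control 1 minus the mean of controls 2 and 3 (log2 scaled signal) for the 5p arm (orange) and the 3p arm (blue) of the 17 hairpins with both arms detected. The 3p arm lies to the right of the 5p arm in 14 hairpins, and the 5p arm lies to the right for miR-6906, miR-6946 and miR-7080. Several of the 3p arms, named in the text, were detected on control 1 alone.

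The share of C and U, which the choice of members did not use, gave a comparison with the entries counted as outside the range. These include entries with a letter after a number of the range, such as miR-6973a-3p (72.7% C and U, excess 5.64). Among the 425 detected entries outside the range, the median excess of control 1 was 0.02 for entries with up to 40% C and U (n = 112), −0.17 from 40% to 50% (n = 141), 0.03 from 50% to 60% (n = 86) and 0.78 from 60% to 70% (n = 50). It was 3.10 from 70% to 80% (n = 20) and 4.16 above 80% (n = 16). The correlation of the excess with the share was 0.40 over these 425 entries, which were all measured on the same 3 control arrays. Over all 1266 entries outside the range with a sequence, detected or not, the medians were 1.02 from 70% to 80% (n = 66) and 3.30 above 80% (n = 24), and 0 in each lower class. Entries rich in C and U thus stood higher in the median on control 1 outside the number range as well. The excess was not particular to them: miR-467g reached 7.61 with 52.4% C and U, and miR-6481 6.15 with 42.1%. All 16 detected entries above 80% were detected on control 1, which took part in choosing the detected entries. Detected entries without a sequence were left out. Within the 55 3p members the correlation was 0.17.

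**Figure D4:**
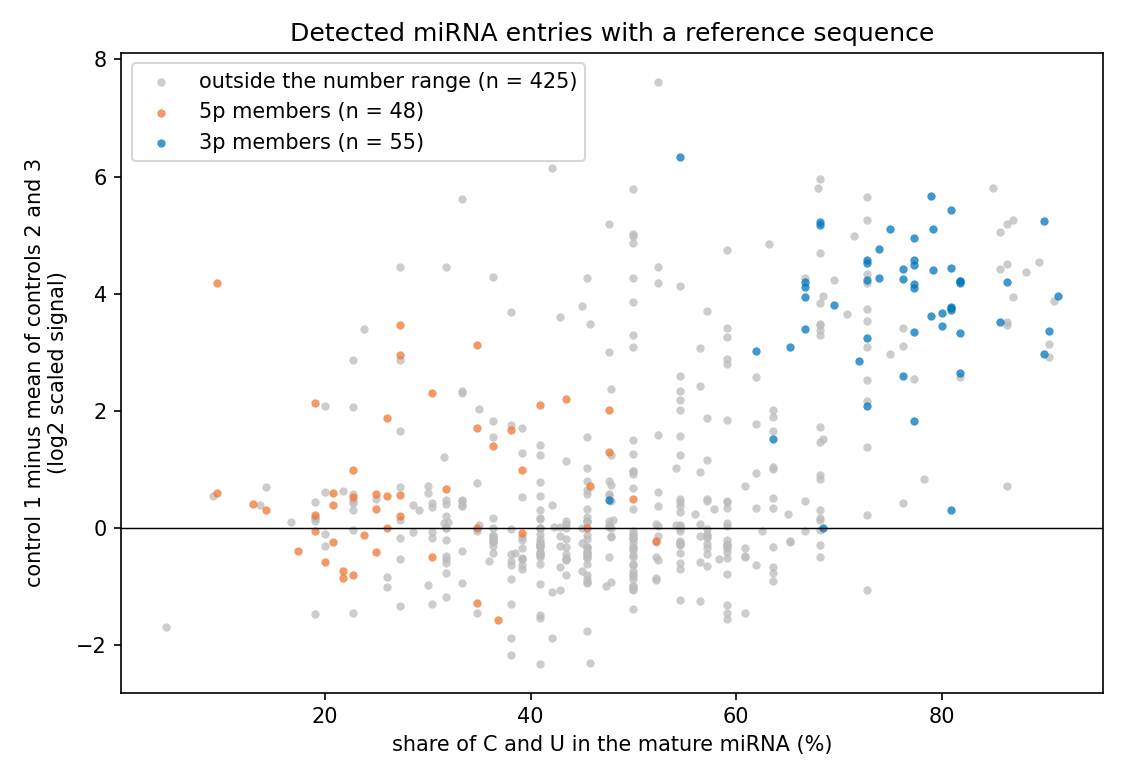
Share of C and U in the mature miRNA (horizontal, percent) against control 1 minus the mean of controls 2 and 3 (vertical, log2 scaled signal) for detected entries with a sequence, with entries outside the number range in grey (n = 425), 5p members in orange (n = 48) and 3p members in blue (n = 55). Grey points above 80% C and U have a median of 4.16 and lie among the 3p members, while those up to 40% have a median of 0.02.

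Of 3 older mouse mirtrons outside the range, miR-877 had its 3p arm detected, miR-1224 had both arms detected and miR-702 had neither. miR-877-3p, which lies outside the number range and was detected on all 9 arrays, gave 193, 32.0 and 21.5 on the controls, 16.5, 26.4 and 19.8 on the model arrays and 55.8, 50.8 and 27.3 on the codonopsis arrays. miR-877-5p was detected on none. miR-1224-5p, detected on all 9, gave 411 on control 1 and 600 to 1042 on the other arrays. On the log2 scaled signal it was 0.75 on control 1, above every other array but codonopsis 1 (1.11), whereas miR-1224-3p was detected on control 1 alone, at 35.4. The order of arrays for miR-877-3p was that of miR-7047-3p, with control 1 first and codonopsis 1 and 2 next.

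The 5p arms that varied most were high on codonopsis 1 and codonopsis 2 and, after scaling, mostly on control 1. The 6 5p members of widest range among those detected on at least 3 arrays were miR-7061-5p, miR-7080-5p, miR-6905-5p, miR-7055-5p, miR-6971-5p and miR-6904-5p, and all 6 had their highest unscaled signals on those 2 arrays. On the log2 scaled signal codonopsis 2 was also the highest array for all 6, but the male control 1 lay near or above codonopsis 1 in 5 of them: −3.45 against −3.52 for miR-6904-5p, −3.76 against −4.04 for miR-6905-5p, −4.58 against −4.52 for miR-6971-5p, −4.32 against −4.28 for miR-7055-5p and −3.47 against −3.42 for miR-7080-5p. For miR-7061-5p control 1 was at −5.01 and codonopsis 1 at −3.25. miR-7061-5p, within Plekha1, gave 7.59, 12.7 and 2.59 on the controls, 2.66, 9.28 and 6.88 on the model arrays and 50.6, 65.2 and 7.58 on the codonopsis arrays. miR-7080-5p, within Cpne7, gave 22.1, 23.7 and 3.35, then 20.4, 22.03 and 18.1, then 45.1, 58.2 and 17.9. miR-6904-5p, within Parp1 (a DNA-damage sensor that adds ADP-ribose chains), gave 22.4, 18.2 and 5.84, then 14.6, 20.4 and 15.2, then 41.9, 50.03 and 14.3. In all 3 codonopsis 3 lay within the span of the control and model arrays, and control 3 was the lowest array.

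The remaining 3 were also highest on codonopsis 1 and 2 unscaled. On codonopsis 1, 2 and 3, miR-6905-5p gave 29.2, 35.1 and 7.34, miR-7055-5p 24.9, 27.9 and 6.25, and miR-6971-5p 21.0, 25.1 and 5.73. Over all 5p members, codonopsis 1 and 2 were both above the other 7 arrays in 24 of 56 unscaled and 18 of 56 scaled (32.1%), against 51 of 535 detected entries outside the range scaled (9.53%) and 4 of 59 3p members. Some 5p members, such as miR-6975-5p and miR-7074-5p, were detected on those 2 arrays alone. Their excess there was set by the rule that chose them, so part of this count was fixed in advance. Codonopsis 1 and 2 were the male mice of the slide and also its only arrays in the first row, and the female codonopsis 3 was in the second row with the 3 female model mice. On this slide sex and row therefore cannot be told apart. The male control 1 and the female controls 2 and 3 were all in the first row of the other slide. The part of sex and row in the result was not tested.

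The pairs with a shared seed did not share a pattern throughout. miR-7055-5p and miR-6926-5p (seed CAGUGGG) both peaked on codonopsis 1 and 2, the second with 10.5 and 7.29 there, 3.73 on codonopsis 3 and 1.90 to 6.43 on the control and model arrays. miR-6975-5p (seed CUGGGGA), within Ddx39b, gave 19.3, 21.8 and 3.52 on the codonopsis arrays and was detected only on the first pair of them. Its seed partner miR-7005-5p, within Lama5 (a laminin chain of basement membranes), was detected on all 9 arrays at 8.05 to 13.9. miR-6926-5p, like miR-6975-5p, was detected on codonopsis 1 and 2 alone, so the rule that chose these members favoured their peak there.

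The group comparisons were run over all 650 miRNAs detected on at least 1 array, with limma's moderated test and Benjamini-Hochberg adjustment at 0.05. No 5p and no 3p member was called in any of the 3 comparisons, and neither was any other miRNA: 0% were called. Among the members, the smallest limma adjusted p was 0.529 for model minus control, 0.390 for codonopsis minus model and 0.356 for codonopsis minus control. Of the values of the 3p members, 66.1% in the model group, 42.9% in the control group and 37.9% in the codonopsis group were at the floor, so that many of their differences are set by it. With 3 mice a group, the p-values measure only the spread between these mice.

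**Figure D5:**
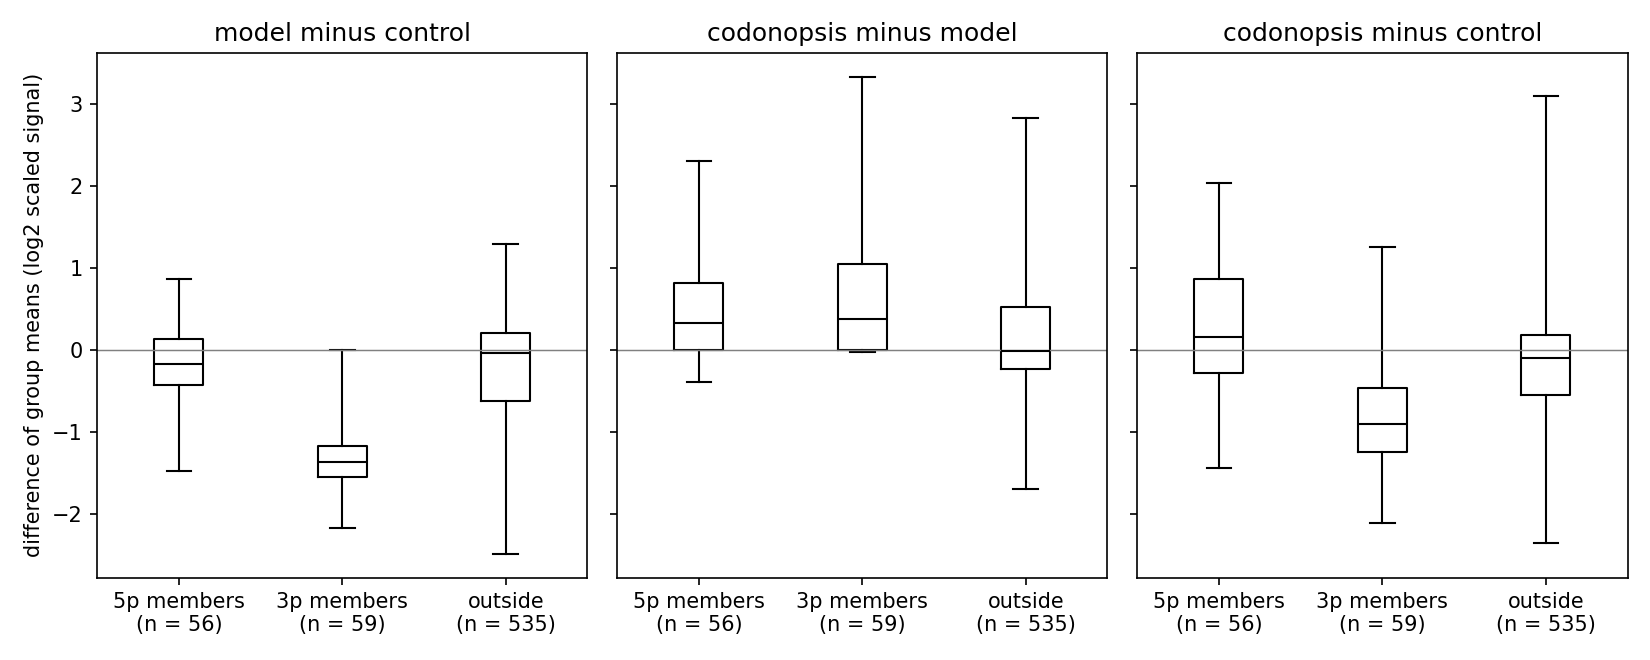
Difference of group means (log2 scaled signal) in the 3 comparisons for 5p members (n = 56), 3p members (n = 59) and the other detected entries (n = 535), where boxes show the quartiles, the line the median and the whiskers the lowest and highest entry. The 3p box is below 0 in model minus control (median −1.37) and codonopsis minus control (−0.90), both of which contain control 1, and at or above 0 in codonopsis minus model (0.37). Of the 59 3p members, 42 were kept through control 1 alone.

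The first comparison set the model mice, given D-galactose and nitrite, against the control mice. The median difference was −0.18 for 5p members, −1.37 for 3p members and −0.18 over all 650 miRNAs. Without control 1 the 3p median was 0.00, so it rested on that array. Since 42 of the 59 3p members were kept through control 1 alone, the rule that chose them favoured a negative 3p median. The 3p medians of controls 2 and 3 and of the model arrays were at the floor, so 0.00 does not show equal levels. At an unadjusted p under 0.05, 1 5p member was higher against 4.46% of all miRNAs, and 2 5p members and 1 3p member were lower against 2.31%. The groups did not overlap, with model lower, in 6 5p members and 5 3p members (7.85% of all miRNAs), and with model higher in 1 5p member (9.85%). Unscaled, 1 of these 6 5p members and all 5 3p members still did not overlap. These shares, 10.7% of 5p and 8.47% of 3p members lower, were near the background.

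miR-7069-5p, within Farsa (a subunit of the phenylalanine-charging enzyme), gave 0.54, 4.92 and 4.35 on the controls and 5.48, 5.41 and 4.92 on the model arrays. Its log2 scaled difference was 0.86 (SE 0.36, adjusted p 0.529 by limma), the model arrays lay above the controls, and control 1 was the lowest of all. miR-6997-5p, within Sptan1 (a spectrin chain of the membrane skeleton), gave 9.41, 16.3 and 16.1 on the controls and 9.66, 11.7 and 10.6 on the model arrays, a scaled difference of −0.44 (SE 0.18, limma adjusted p 0.529). Unscaled, these groups overlapped. With other scalings the sign of this difference turned, to 0.13 with the 75th percentile taken over all miRNAs and 0.21 with quantile normalization. The same 2 scalings turned miR-7033-5p (−0.39, SE 0.17) and miR-6984-5p (−0.45, SE 0.23).

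Among 3p arms, miR-7080-3p was detected on controls 1 and 2 and on no model array. It gave 10.9, 5.98 and 6.25 on the controls and 3.46, 3.39 and 3.01 on the model arrays. In the scaled means it was 2.40-fold lower in the model group (limma adjusted p 0.529). Without control 1 its log2 scaled difference went from −1.26 to −0.66. miR-6943-3p and miR-7022-3p also lay lower on all 3 model arrays, by 2.05-fold and 1.67-fold in the scaled means, with the same adjusted p. miR-6943-3p was detected on control 1 alone, and without that array its difference went from −1.04 to −0.34, and that of miR-7022-3p from −0.74 to −0.24. For miR-7022-3p, within Fbxo6 (a ubiquitin ligase subunit for glycoproteins), the controls gave 13.7, 9.97 and 9.03 and the model arrays 6.64, 7.28 and 6.51.

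The second comparison set the codonopsis mice against the model mice, all on 1 slide. The median difference was 0.32 for 5p members, 0.37 for 3p members and 0.00 over all miRNAs. All 3 codonopsis arrays lay above all 3 model arrays in 29 of 59 3p members (49.2%), scaled and unscaled, and in 7 of 56 5p members (12.5%), against 17.1% of all miRNAs. The reverse order was found in 1 5p member and no 3p member, against 14.5%. Of the 29 3p members, 16 were detected on no array of either group and 7 on all 3 codonopsis arrays. Most of these differences thus lay among signals that the software did not call detected. At an unadjusted p under 0.05, 6 5p and 3 3p members were higher (6.31% of all miRNAs) and none lower (1.23%). Some of the higher members, such as miR-6902-3p, were detected on codonopsis arrays alone. The rule that chose the members thus favoured this count.

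miR-7047-3p, miR-7011-3p and miR-7017-3p, whose signals are given above, were higher on each codonopsis array than on each model array. Their log2 scaled differences were 1.17 (SE 1.01), 1.09 (SE 0.90) and 1.03 (SE 1.12), with limma adjusted p of 0.772, 0.772 and 0.818. The fit over 9 arrays counts the spread among the controls, where control 1 stood apart, in these errors. miR-6902-3p, within Ppp1r7 (a regulatory subunit of protein phosphatase 1), gave 2.87, 4.30 and 3.89 on the model arrays and 17.2, 13.0 and 5.25 on the codonopsis arrays. It was detected on no model array and was 2.70-fold higher in the codonopsis group in the scaled means (limma adjusted p 0.390). miR-6902-3p was detected on codonopsis arrays alone, so the rule that chose it favoured this excess. miR-6957-3p was 10.02-fold higher in the scaled means (adjusted p 0.599), with codonopsis 3 far below the other pair. Its log2 scaled difference of 3.33 went to 2.48 without codonopsis 2 and 4.73 without codonopsis 3.

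miR-7058-3p, within Lat (a T-cell receptor adaptor gene), gave 1.88, 3.35 and 2.14 on the model arrays and 9.84, 8.47 and 6.16 on the codonopsis arrays, 3.14-fold higher in the scaled means (limma adjusted p 0.719). It was detected on all 3 codonopsis arrays and on no model array. Among 5p arms, miR-6926-5p was at least 2.15-fold higher in the codonopsis group, miR-7034-5p was 2.46-fold higher and miR-7043-5p was 1.71-fold higher, each with an adjusted p of 0.599 by limma. All 3 were detected on codonopsis 1 and 2, none was detected on a model array, and the signals of codonopsis 3 (3.73, 4.38 and 5.29) were the lowest of their group. miR-6926-5p and miR-7034-5p were detected on codonopsis 1 and 2 alone, so the rule that chose them favoured their excess. The 5p member in the reverse order was miR-6931-5p, within Dcakd, with 21.6, 18.3 and 15.3 on the model arrays and 17.3, 15.2 and 12.7 on the codonopsis arrays, which overlapped unscaled (scaled difference −0.38, SE 0.17).

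The calls in this comparison depended on which arrays entered the fit. With the 6 arrays of the shared slide alone, 7 3p members passed an adjusted p of 0.05 in limma, all higher in the codonopsis group (1.54% of all miRNAs), and none of the 7 was detected on any of these 6 arrays. Without control 1, 12 3p members passed, all higher (6.15% of all miRNAs), which included those 7, and 8 of the 12 were detected on no model or codonopsis array. miR-7020-3p, for example, gave 0.66, 1.31 and 0.52 on the model arrays, all at the floor after scaling, and 3.03, 2.81 and 2.44 on the codonopsis arrays, none of them called detected. Without codonopsis 3, 4 5p and 3 3p members passed (2.77% of all miRNAs), none of them among the 12. They were miR-6923-5p, miR-6924-5p, miR-6985-5p, miR-7074-5p, miR-6902-3p, miR-7003-3p and miR-7042-3p. That fit keeps only the male, first-row codonopsis arrays. Each of these members was detected on 1 or 2 arrays and was highest on those 2 codonopsis arrays. The rule that chose them and the array left out thus favoured these calls, and for 4 of them every model array was at the floor. With sex as a covariate no member was called, and the median difference was −0.05 for 5p and −0.87 for 3p members. Control 1 was the only male control and no model mouse was male. The sex term therefore rests on control 1, which stood apart in the 3p arm, and on the codonopsis arrays.

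The third comparison set the codonopsis mice against the control mice and shares arrays with both others. The median difference was 0.15 for 5p members, −0.90 for 3p members and −0.13 over all miRNAs, and without control 1 the 3p median was 0.31. The rule that chose the 3p members, 42 of 59 through control 1 alone, favoured the negative median. On controls 2 and 3 the 3p medians were at the floor, which limits what the 0.31 can show. The groups did not overlap in 3 5p members and 1 3p member with codonopsis higher (4.77% of all miRNAs) and in 4 5p members and 1 3p member with codonopsis lower (5.54%). Unscaled, 2 of those 3 and 1 of those 4 5p members still did not overlap. At an unadjusted p under 0.05, 6 5p and 3 3p members were higher (7.23%) and 2 5p and 1 3p lower (4.46%). Some of the higher members, such as miR-6902-3p, were detected on codonopsis arrays alone. The rule that chose the members thus favoured the counts of higher members. Without control 1, 1 5p and 7 3p members were called higher in limma (6.46% of all miRNAs), of which all 7 3p were also called against the model group in that fit and were detected on none of the 5 arrays. The 5p member, miR-7034-5p, was detected on codonopsis 1 and 2 alone, so the rule that chose it favoured its call. Without codonopsis 3, the same 7 members as against the model group were called higher (4% of all miRNAs), with every control array at the floor for 4 of them. The rule that chose them and the array left out favoured these calls too.

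miR-6944-5p, within Dbn1 (the actin-binding drebrin gene), gave 4.46, 11.3 and 12.0 on the controls and 16.8, 12.5 and 14.8 on the codonopsis arrays, a scaled difference of 0.60 (SE 0.20, limma adjusted p 0.356). All 3 codonopsis arrays lay above the controls, and the model arrays (10.6, 11.7 and 10.2) lay within the span of the controls unscaled. miR-7074-5p was detected on codonopsis 1 and 2 alone, at 7.06 and 6.73, with 1.58 on codonopsis 3 and 0.34 to 1.35 on the controls, at least 1.61-fold higher (adjusted p 0.392). Its log2 scaled difference of 1.30 became 1.94 without codonopsis 3. miR-7069-5p differed by 0.83 (SE 0.36, adjusted p 0.426). miR-6902-3p was 2.35-fold higher in the scaled means (adjusted p 0.356). Like miR-7074-5p, it was detected on codonopsis arrays alone, so the rule that chose these members favoured their excess.

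In the other direction, miR-6898-5p, within Kansl3 (a subunit of a histone acetyltransferase complex), was detected on all 9 arrays. It gave 16.8, 32.3 and 16.7 on the controls, 14.4, 17.7 and 9.57 on the model arrays and 14.3, 15.2 and 10.13 on the codonopsis arrays. Its scaled difference was −0.87 (SE 0.30, limma adjusted p 0.356), and every codonopsis array lay below every control. miR-6970-5p was 1.64-fold lower in the scaled means (adjusted p 0.356) and was detected on no codonopsis array and on all 3 model arrays. miR-6984-5p differed by −0.52 (SE 0.23, adjusted p 0.427), and miR-7080-3p was 2.45-fold lower in the scaled means (adjusted p 0.392). Without control 1 the difference of miR-7080-3p went from −1.29 to −0.68.

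At the limit of the detection rule, the named members had higher top signals than the named undetected entries in both arms. The detection call chose the members, so a difference in this direction was favoured by the rule. The 3 5p members with the highest mean level among those detected on 1 array were miR-6993-5p, miR-6946-5p and miR-6981-5p, detected at 8.05, 17.9 and 10.9. The undetected 5p entries of highest mean level, miR-7014-5p, miR-7038-5p and miR-7056-5p, reached 4.36, 6.08 and 6.55. In the 3p arm the corresponding members were miR-6984-3p, miR-6943-3p and miR-7013-3p, at 24.0, 12.8 and 53.2 on control 1. The undetected miR-7055-3p, miR-7046-3p and miR-6934-3p reached 6.55, 8.33 and 8.31, each also on control 1.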

How the data were processed

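Total lung RNA was labelled with pCp-Cy3 and read on Agilent mouse miRNA arrays, per the labels' protocols. Per the file headers, the deposited scanner files hold linear fluorescence intensity from Agilent Feature Extraction version 11.5.1.1 (the submitters' processing notes name 10.10), corrected for background and spatial trends and not scaled between arrays. The detection flag of 0 or 1 is that software's call, per the file headers. The authors' deposited value table holds log2 values, with 1e-06 for an undetected miRNA, and served as an alternative only.

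Members and lists were chosen with earlier results of these data known. Spots marked as outliers were left out (2.86% to 3.28% per array). The processed intensity was averaged over spots, then probes, divided by the array's 75th percentile (taken over the 289 entries that every array detected), set to at least log2 −8 and logged. limma 3.58.1 in R 4.3.3 fitted group over all 9 arrays (6 residual degrees of freedom), with lmFit and eBayes, on the 650 miRNAs detected on at least 1 array, two-sided, with Benjamini-Hochberg adjustment at 0.05. The fit was tested on simulated data. Where a member was undetected throughout a group, the fold is the other group's mean against the mean, per array, of the higher of the lowest detected signal and the member's own signal. It is printed as a lower bound only where the lowest detected signal was the higher on some array. Elsewhere it is the plain fold between the scaled group means. No fold allows for the spread between mice. No fold is given where both groups were undetected.

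Named members were, per arm, the 8 of highest mean level, up to 3 in each direction and comparison with the smallest p among groups that do not overlap, the 6 of widest range, the 3 nearest the detection rule on each side, the brightest hairpins with both arms and the shared seeds. Other names were added after their values were seen. Alternatives were other scalings, background corrections, floors, filters, probe summaries, sex as a covariate, the shared slide alone and leaving out each array. normexp used the median spot signal, offset 50. The number of arrays limits the precision.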

Additional observations from a re-analysis of the deposited data

How the results depend on the processing

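No paired analysis was possible because the replicate numbers only name the arrays. Members called in codonopsis minus model came to 7 with the shared slide alone and ranged from 0 to 12 when single arrays were left out (12 without control 1, 7 without codonopsis 3). In codonopsis minus control they ranged from 0 to 8 (8 without control 1, 7 without codonopsis 3), and in model minus control 0 were called throughout.

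The 3p median of codonopsis minus model was 0.24 with quantile normalization, 1.39 with a 75th percentile of all 1881 entries, −0.0379 with normexp, 0 with the deposited log2 table, the total gene signal and a floor of −6, 0.50 with the brightest probe, −0.87 with sex as a covariate, 1.06 over the 8 members detected on all arrays of a group and 1.13 over the 2 detected on all 9. Leaving out single arrays gave 0.31 to 0.48. The 5p median of model minus control was 0.28 with quantile normalization and 0.43 with that percentile, which put the median of all tested miRNAs at 0.45.

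Signs turned for 7 members, none of them called. In model minus control miR-6997-5p became 0.13 (that percentile), 0.21 (quantile), 0.44 (deposited table) and 0.66 (total signal), miR-7033-5p 0.18 (percentile), 0.28 (quantile) and 0.0372 (total signal), and miR-6984-5p 0.12 (percentile), 0.17 (quantile) and 0.30 (deposited table). With normexp miR-7069-5p became −0.0246 there and −0.10 in codonopsis minus control, miR-7043-5p −0.0149 in codonopsis minus model, and miR-6944-5p −0.038 and miR-7074-5p −0.0444 in codonopsis minus control. The other medians moved by less than the pooled SD of the arrays' own medians, a spread that is wide for 3p members because of control 1, and several moved far or turned sign. The 3p median of model minus control ranged over the settings that keep all arrays from −1.80 (75th percentile of all entries) to −0.18 (normexp), with −0.58 for the deposited table and −0.68 with sex as a covariate. That of codonopsis minus control ranged from −1.51 (sex as a covariate) to −0.11 (75th percentile of all entries). The 5p median of model minus control was 0.09 with the deposited table, that of codonopsis minus model −0.0077 with normexp and −0.05 with sex as a covariate, and that of codonopsis minus control −0.10 and −0.0023 in the same order. Without control 1 the 3p median was 0.00 in model minus control and 0.31 in codonopsis minus control. The cause was not tested.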

Other observations

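Of the 5p members with a sequence, the 15 that hold UU, a feature chosen after the values were seen, stood higher on codonopsis 1 and 2 than on codonopsis 3 by a median of 1.48 on the log2 scaled signal, and the 33 without UU by 0.27. In the detected entries outside the number range the medians were 0.00 with UU (n = 255) and 0.06 without (n = 170), so the difference was not found there.

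The muscle miRNAs miR-1a-3p and miR-133a-3p varied among the codonopsis arrays in another order than the 5p members of widest range. miR-1a-3p gave 134, 1831 and 90.9 on codonopsis 1, 2 and 3 and 428 to 1075 on the other 6 arrays. Those 5p members were high on codonopsis 1 and 2 together, which did not hold for all 5p members.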
